A study of Homo sapiens with 4 samples.

Results

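The hypoxia response and glycolysis genes examined here are 38 gene symbols chosen by name: the 2 oxygen-labile subunits of the hypoxia-inducible factor HIF, 19 regulators that HIF induces, and 17 glycolytic enzymes including lactate dehydrogenase. A symbol was represented by its brightest feature over 4 arrays, and 36 of the 38 had a feature among the 21448 on the array. CA9 and PFKFB4 had no named feature here, which left 17 of the 19 HIF-induced regulators and all 17 enzymes.

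HeyA8-MDR is an established, multidrug-resistant human ovarian carcinoma line, grown in RPMI 1640 medium with 15% fetal bovine serum, 0.1% gentamicin sulfate and 300 ng/ml paclitaxel, a drug that stabilises microtubules. In the condition labelled miR204 (2 arrays), the cells were given an inhibitor of miR-204-5p, an oligonucleotide that blocks this microRNA. In the other condition (2 arrays) they were given a control inhibitor, and all 4 samples shared the line and the paclitaxel medium. The label on treatment names the miR-204-5p inhibitor for every sample, so the control arrays were recognised by sample titles without miR204 and by the series' design text. Both conditions were 1 cell line, no oxygen condition is named in the labels, and the labels do not say whether the replicates came from separate cultures. The p-values therefore measure only how far these arrays spread, which may be technical. Values are log2 expression on Affymetrix Human Clariom S arrays, and the number of arrays limits the precision.

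HIF is a transcription factor made of an alpha subunit and a stable partner. When oxygen is plentiful, EGLN prolyl hydroxylases mark the alpha subunit and the VHL ubiquitin ligase destroys it, so HIF activity is set mostly at the protein level. When oxygen is short, HIF binds short sites that often read ACGTG. It then induces genes of glucose uptake, pyruvate handling, mitophagy, collagen maturation and vessel tone, together with many glycolytic enzymes. Carcinoma cells often run glycolysis to lactate even with oxygen present, and several of these genes also answer to amino acid, growth factor and glucocorticoid signals.

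The blocked microRNA is printed first because it defines the contrast. Its mature sequence, from RefSeq (GRCh38.p14, chr9:70810031-70810052, minus strand), is given 5′ to 3′ with the seed, bases 2 to 8, in capitals.
hsa-miR-204-5p: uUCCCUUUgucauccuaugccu
Promoters of RefSeq (GRCh38.p14), from 250 bases before to 50 after a gene's start, were then searched for ACGTG on both strands, which reads CACGT on the printed strand when it lies on the other. The palindrome CACGTG, which is also an E-box, was counted once. Other forms of the HIF site were not searched, so a promoter without these letters may still hold one. RefSeq promoters were matched for 33 of the 36 measured genes, all but SLC2A3, BNIP3L and NDRG1, and 20 of the 33 (60.6%) held the letters in at least 1 promoter, against 24.9% of all 27305 symbols. Counted by promoter, 26 of 61 (42.6%) held them, against 21.4% of all 35116. The share was 9 of 14 for the HIF-induced regulators and 11 of 17 for the enzymes, and neither promoter set of HIF1A nor that of EPAS1 held a match. These genes are known for their HIF response, so the share describes how they were picked. Promoters of 2 regulators with higher means under the inhibitor are printed, DDIT4 (chr10:72273674-72273973, plus strand) and ANKRD37 (chr4:185396591-185396890, plus strand). Beside them are those of PDK1 (chr2:172555840-172556139, plus strand) and PGK1 (chrX:78103998-78104297, plus strand), which had lower means. These 4 genes were chosen by name and only promoters with a match are printed, so they are examples and do not compare the directions. Matches are in capitals.
DDIT4: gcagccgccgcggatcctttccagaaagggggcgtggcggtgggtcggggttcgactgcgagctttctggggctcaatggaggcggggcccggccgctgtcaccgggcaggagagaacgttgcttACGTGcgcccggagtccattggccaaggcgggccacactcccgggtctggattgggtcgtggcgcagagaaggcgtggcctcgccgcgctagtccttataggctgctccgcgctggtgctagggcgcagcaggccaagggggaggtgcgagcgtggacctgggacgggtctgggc
ANKRD37: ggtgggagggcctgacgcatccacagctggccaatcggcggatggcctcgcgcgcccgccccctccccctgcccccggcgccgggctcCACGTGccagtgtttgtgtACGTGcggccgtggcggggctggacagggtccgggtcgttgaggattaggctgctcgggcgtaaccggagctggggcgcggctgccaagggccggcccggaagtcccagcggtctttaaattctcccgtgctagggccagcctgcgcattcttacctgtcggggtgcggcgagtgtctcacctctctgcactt
PDK1: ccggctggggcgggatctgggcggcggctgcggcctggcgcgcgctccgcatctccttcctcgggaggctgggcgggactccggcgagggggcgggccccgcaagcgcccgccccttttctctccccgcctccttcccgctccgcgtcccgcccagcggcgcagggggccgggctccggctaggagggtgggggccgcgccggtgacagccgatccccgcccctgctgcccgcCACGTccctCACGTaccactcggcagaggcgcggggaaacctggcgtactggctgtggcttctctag
PGK1: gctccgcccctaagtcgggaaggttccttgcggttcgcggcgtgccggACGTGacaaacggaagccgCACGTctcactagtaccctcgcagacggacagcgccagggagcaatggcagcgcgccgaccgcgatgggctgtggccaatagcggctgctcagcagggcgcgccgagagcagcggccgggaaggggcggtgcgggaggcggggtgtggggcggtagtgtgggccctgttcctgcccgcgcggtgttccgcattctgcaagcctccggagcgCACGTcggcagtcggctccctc
Counted from the start site, the match began at -125 in DDIT4, at -162 and -143 in ANKRD37, at -17 and -8 in PDK1, and at -202, -183 and 29 in PGK1. The PDK1 sequence is the promoter with a match among the 2 that RefSeq lists for this gene. Among regulators with a RefSeq promoter, 3 of 4 whose inhibitor arrays both lay above the controls held a match, as did 3 of 5 whose inhibitor arrays both lay below.

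Array medians were 5.59 and 5.61 with the inhibitor and 5.65 and 5.68 in the controls, and the standard deviations over features were 2.08 and 2.13 against 2.20 and 2.21, so the inhibitor arrays had a narrower spread of values. The keratin features KRT8, KRT18 and KRT7, epithelial markers, lay between 10.3 and 11.45 on all arrays and KRT19 between 4.96 and 5.62, while EPCAM lay between 2.93 and 3.87, within the dimmest 25% of features (up to 3.965). The epithelial list summed to 40.69 and 40.91 with the inhibitor and 41.44 and 42.61 in the controls, all 5 with lower means. KRT7 had values of 10.30 and 10.34 against 10.69 and 10.75. A lower mean was found for 59.2% of all features, and for 85.3% of those at a level of 10 or more, as KRT8, KRT18 and KRT7 are. After quantile normalization KRT8 was higher, by 0.038, and the other 4 were lower, KRT18 by -0.027. ABCB1, the drug efflux pump, had values of 7.67 and 7.55 with the inhibitor and 7.68 and 7.77 in the controls. Of 5 markers each, 1 leukocyte, 2 fibroblast and 2 endothelial markers lay within that dimmest 25%, and PTPRC, LUM and TEK did not exceed 3.16. Other markers of these lists were brighter, with CD68 between 8.30 and 8.55, COL1A2 between 7.60 and 7.99, CD79A between 6.22 and 6.74, VWF between 6.45 and 6.53 and COL1A1 between 5.66 and 6.31. The endothelial list summed to 23.52 and 23.53 with the inhibitor and 24.24 and 24.06 in the controls, and that lower sum came from CDH5. CDH5 was the furthest apart (7.01 and 7.03 against 8.13 and 8.06), a log2 difference of -1.075. Of the 5 endothelial markers, 3 had higher means with the inhibitor and 2 lower. PECAM1 was higher by 0.47, with both inhibitor arrays above both controls, VWF and KDR were higher by 0.045 each, and TEK differed by -0.11. The leukocyte list summed to 28.03 and 28.26 against 27.26 and 27.33, and the fibroblast list to 23.69 and 24.63 against 25.17 and 24.24. Their part in the results was not tested, and in bulk RNA fewer cells of a type and less RNA per cell cannot be told apart.

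With miR-204-5p blocked, DDIT4, ADM, SLC2A3, NDRG1 and BNIP3L had expression 1.32 to 1.62 times that of control cells, as folds taken from the log2 differences. For KDM3A, PFKFB3 and PDK1 the expression was 0.646 to 0.697 times as high. Of the 17 enzymes, 16 had a lower mean with the inhibitor, by at most 0.35 on the log2 scale, and HK1 had a higher one. A lower mean was found for 59.2% of all features and for 85.3% of the 605 features with a mean level of 10 or more, the range that holds 9 of the enzymes. No member passed an adjusted p of 0.05 over all features in limma, where 0.0513% of features passed in the higher direction and 0.0% in the lower. The lowest adjusted p of a member in limma was 0.16, for ADM. At an unadjusted p under 0.05, 5 members were higher, all of them HIF-induced regulators, against 5.11% of all features. At the same threshold 4 were lower, 3 regulators and the enzyme GPI, against 12.8% of all features. Without control array 1, and likewise without control array 2, 2 regulators were higher and 1 lower at that threshold, and 0 enzymes were lower, while 4 enzymes were lower without inhibitor array 2 and 2 without inhibitor array 1. In those fits 1.61% of all features were higher and 4.3% lower without control array 1, and 1.59% and 2.72% without control array 2. Without inhibitor array 2, 9.88% were higher and 17.5% lower (27.3% lower at a level of 10 or more), and without inhibitor array 1, 6.37% and 12.4%.

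**Figure D1:**
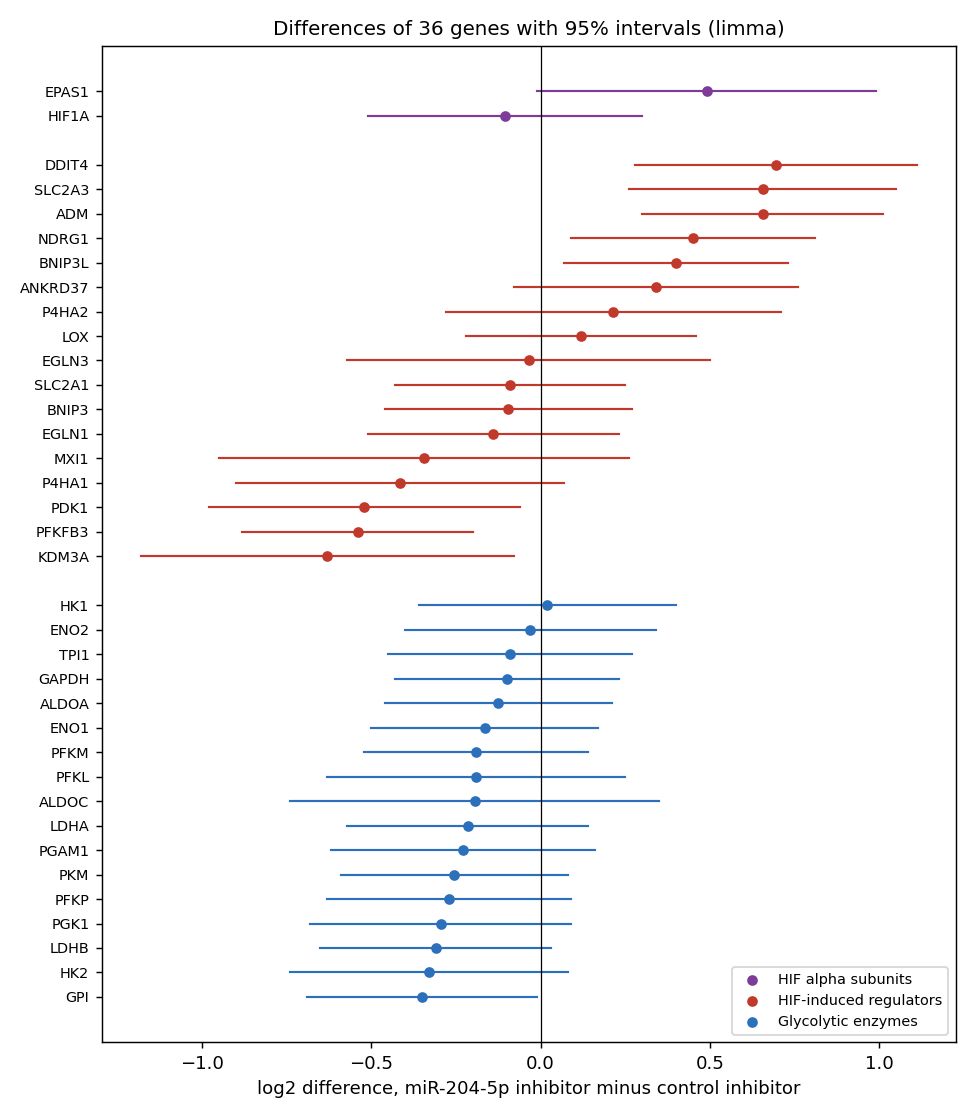
Log2 difference, miR-204-5p inhibitor minus control inhibitor, on the horizontal axis for the 36 measured genes, with HIF alpha subunits on top, HIF-induced regulators in the middle and glycolytic enzymes below. Points are differences of means of 2 arrays per group and lines are 95% intervals from limma, and the regulators run from -0.63 to 0.695 while the enzymes stay between -0.35 and 0.02.

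The 2 HIF alpha subunits did not show the same pattern. EPAS1, the alpha subunit also called HIF-2 alpha, had values of 9.51 and 9.04 with the inhibitor and 8.61 and 8.96 in the controls. Both inhibitor arrays lay above both controls, the nearer by 0.08, and the inhibitor arrays differed from each other by 0.47, almost as much as the group means did. The log2 difference was 0.49 (SE 0.211, 95% interval -0.01 to 0.99, adjusted p = 0.29 in limma). It was 0.705 after quantile normalization, and with quantile normalization and an intensity trend together EPAS1 passed (limma, adjusted p = 0.045). HIF1A, the subunit of the same kind found in nearly all cells, had values of 8.73 and 9.06 with the inhibitor and 8.93 and 9.07 in the controls. These groups overlapped, with a log2 difference of -0.105 (SE 0.169, 95% interval -0.51 to 0.30), and the sign turned after quantile normalization (0.098) and cyclic loess (0.108). Within an array, EPAS1 minus HIF1A was higher by 0.595 with the inhibitor, and the 2 groups did not overlap on that measure, though by 0.09 only.

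The hydroxylases that read oxygen had no member past the threshold. EGLN1, the main HIF prolyl hydroxylase, had values of 6.40 and 6.64 with the inhibitor and 6.62 and 6.70 in the controls, a log2 difference of -0.14 (SE 0.155). EGLN3, a hydroxylase strongly induced by HIF in many cells, had values of 4.56 and 3.90 with the inhibitor, on either side of the control values of 4.26 and 4.27. Its difference of -0.035 (95% interval -0.57 to 0.50) therefore says little about it in either direction. The third HIF hydroxylase, EGLN2, is not among the 38 symbols and was added after its values were seen. It had values of 8.79 and 8.82 with the inhibitor and 8.52 and 8.32 in the controls, which did not overlap, a log2 difference of 0.385 (SE 0.149, adjusted p = 0.25 in limma).

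Of the secreted peptide ADM and 4 other regulators, DDIT4, NDRG1, ANKRD37 and MXI1, all but MXI1 had higher means, and none passed the adjusted threshold. ADM, the vasodilator peptide adrenomedullin, had values of 6.77 and 6.61 with the inhibitor and 5.98 and 6.09 in the controls. Both inhibitor arrays stood clear of the controls, the nearest by 0.52, and the means were 6.69 ± 0.113 and 6.04 ± 0.0778 (SD, n = 2 per group). That is a log2 difference of 0.655, or 1.57-fold (SE 0.148, 95% interval 0.30 to 1.01, adjusted p = 0.16 in limma). DDIT4, an inhibitor of the growth kinase mTORC1 also called REDD1, had values of 6.39 and 6.40 with the inhibitor and 5.90 and 5.50 in the controls. The inhibitor arrays were nearly equal and both above the controls, which differed from each other by 0.4. Its log2 difference of 0.695, or 1.62-fold (SE 0.176, adjusted p = 0.17 in limma), was the highest of the members, and came to 0.495 when control array 2 was left out and 0.895 when control array 1 was. NDRG1, a hypoxia-induced gene linked to growth arrest and differentiation, had values of 6.78 and 6.99 with the inhibitor and 6.47 and 6.40 in the controls. The groups were separate and the log2 difference was 0.45 (SE 0.151, adjusted p = 0.22 in limma). ANKRD37, an ankyrin repeat protein often used as a hypoxia marker, had values of 5.40 and 5.63 with the inhibitor and 5.34 and 5.01 in the controls, a difference of 0.34 (SE 0.176) with the nearest arrays 0.06 apart. MXI1, an antagonist of MYC, rested on a single array: inhibitor array 1 was at 5.76, and inhibitor array 2 at 6.54 lay with the controls at 6.52 and 6.47.

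**Figure D2:**
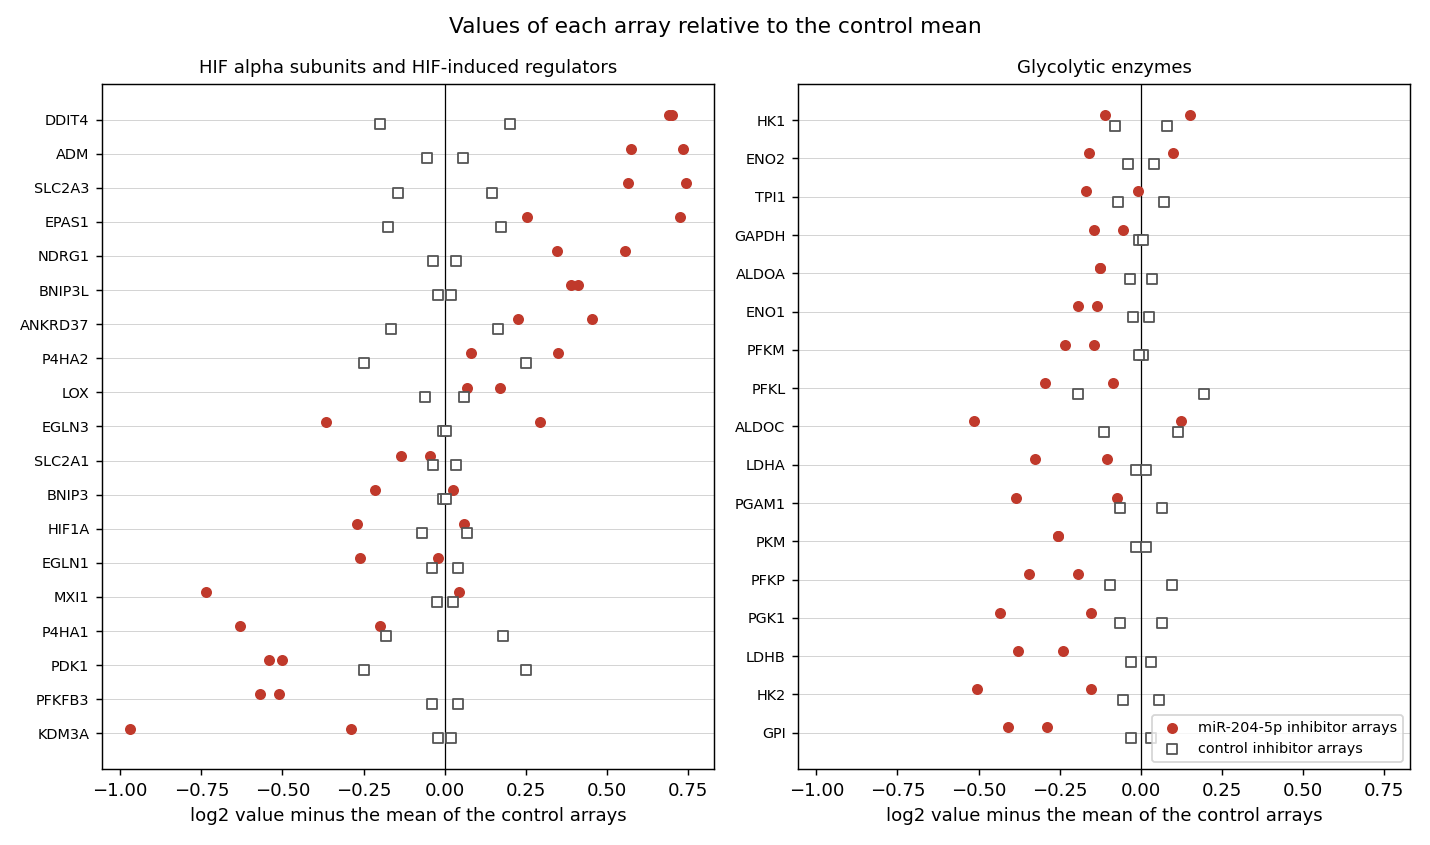
Log2 value of every array minus the mean of the 2 control arrays, on the horizontal axis, with HIF alpha subunits and HIF-induced regulators at left and glycolytic enzymes at right, ordered by difference. Filled circles are the 2 miR-204-5p inhibitor arrays and open squares the 2 control arrays, and the circles of DDIT4, ADM and SLC2A3 lie right of every square while those of PFKFB3 and PDK1 lie left.

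The regulators of glucose entry and carbon flux went both ways. SLC2A3, the high-affinity glucose transporter GLUT3, had values of 8.57 and 8.75 with the inhibitor and 7.86 and 8.15 in the controls. Both inhibitor arrays exceeded both controls, for a log2 difference of 0.655 (SE 0.167, 95% interval 0.26 to 1.05, adjusted p = 0.17 in limma). This gene has a near-identical neighbour, SLC2A14, and whether the feature separates them was not checked. SLC2A1, the widely expressed glucose transporter GLUT1, had values of 9.42 and 9.33 with the inhibitor and 9.43 and 9.50 in the controls, a difference of -0.09 (SE 0.142) that became 0.118 after quantile normalization. PFKFB3, the enzyme that makes the phosphofructokinase activator fructose 2,6-bisphosphate, had values of 5.66 and 5.60 with the inhibitor and 6.21 and 6.13 in the controls. The replicates lay close and the groups apart, and the log2 difference was -0.54 (SE 0.141, 95% interval -0.88 to -0.20, adjusted p = 0.17 in limma). PDK1, the kinase that shuts pyruvate out of the mitochondrial citrate cycle by inhibiting pyruvate dehydrogenase, had values of 5.98 and 5.94 with the inhibitor and 6.23 and 6.73 in the controls. The controls differed from each other by 0.5, and the log2 difference of -0.52 (SE 0.194, adjusted p = 0.24 in limma) shrank to -0.27 without control array 2.

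BNIP3 and BNIP3L, related proteins of the mitochondrial outer membrane that direct mitochondria to autophagy, are usually induced together by HIF. BNIP3L had values of 9.54 and 9.56 with the inhibitor and 9.17 and 9.13 in the controls. Replicates of this gene agreed within 0.04, and the log2 difference was 0.40 (SE 0.139, 95% interval 0.07 to 0.73, adjusted p = 0.22 in limma). BNIP3 had values of 9.06 and 8.82 with the inhibitor and 9.03 and 9.04 in the controls, which overlap, with a difference of -0.095 (SE 0.153) that turned to 0.115 after quantile normalization.

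Collagen and chromatin regulators completed the HIF-induced set. P4HA1, a catalytic subunit of the collagen prolyl 4-hydroxylase, had values of 6.51 and 6.94 with the inhibitor and 6.96 and 7.32 in the controls. The groups touched almost, 0.02 apart, and the log2 difference was -0.415 (SE 0.206, adjusted p = 0.34 in limma). Its alternative subunit P4HA2 had values of 7.35 and 7.62 with the inhibitor and 7.02 and 7.52 in the controls, a difference of 0.215 (SE 0.207) with overlap. LOX, which cross-links collagen and elastin, had values of 7.15 and 7.05 with the inhibitor and 6.92 and 7.04 in the controls, a difference of 0.12 (SE 0.145). KDM3A, a histone H3 lysine 9 demethylase, had values of 3.53 and 4.21 with the inhibitor and 4.48 and 4.52 in the controls. Its difference of -0.63 (SE 0.231, adjusted p = 0.24 in limma) was the lowest among the members. However, its level was low, with a mean over the 4 arrays of 4.19, at percentile 28.0 of all features. The difference was -0.29 without inhibitor array 1.

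Paralogs with related functions were also set against each other within each array, which cancels a shift common to an array. SLC2A3 minus SLC2A1 was higher by 0.745 with the inhibitor, and the nearest arrays of the groups were 0.5 apart. P4HA2 minus P4HA1 was higher by 0.63 with the nearest arrays 0.48 apart, and BNIP3L minus BNIP3 by 0.495 with the nearest 0.34 apart. In each of these pairs the replicate arrays of 1 group lay wholly on a single side of the other group. Not so for the regulator pair EGLN3 minus EGLN1, which differed by 0.105 with overlap. Enzyme isoforms were closer than SLC2A3, P4HA2 and BNIP3L were to their paralogs. LDHB minus LDHA differed by -0.095 with the groups 0.04 apart. ALDOC minus ALDOA differed by -0.07, ENO2 minus ENO1 by 0.135 and PFKP minus PFKM by -0.08, all with overlap. HK2 minus HK1 differed by -0.35, with the groups 0.02 apart. These within-array differences are a description and were not tested, and no share over all features was computed for them.

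The differences of the glycolytic enzymes ran from -0.35 to 0.02, none passed the adjusted threshold, and GPI alone passed an unadjusted p of 0.05. GPI, which converts glucose 6-phosphate to fructose 6-phosphate, had values of 8.97 and 8.85 with the inhibitor and 9.23 and 9.29 in the controls. The groups were separate, the log2 difference was -0.35 (SE 0.143, 95% interval -0.69 to -0.01, adjusted p = 0.27 in limma), and it was -0.136 after quantile normalization. HK2, the inducible hexokinase that starts glycolysis, had values of 6.15 and 5.80 with the inhibitor and 6.25 and 6.36 in the controls, a difference of -0.33 (SE 0.171). HK1, the constitutive hexokinase, had values of 7.64 and 7.90 with the inhibitor and 7.67 and 7.83 in the controls, with a difference of 0.02. The phosphofructokinase isoforms, the committed step, differed by -0.19 for PFKL (SE 0.183), -0.19 for PFKM (SE 0.141) and -0.27 for PFKP (SE 0.153). For the aldolases and the triose isomerase the values were -0.125 for ALDOA, -0.195 for ALDOC and -0.09 for TPI1.

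The 6 enzymes of lower glycolysis and the 2 lactate dehydrogenase subunits had lower means, and none passed an unadjusted p of 0.05. PKM, pyruvate kinase, had values of 11.11 and 11.11 with the inhibitor and 11.35 and 11.38 in the controls, a difference of -0.255 (SE 0.139). PGK1, the first ATP-forming step, had values of 9.48 and 9.76 with the inhibitor and 9.85 and 9.98 in the controls, a difference of -0.295 (SE 0.162). In both genes the groups were separate, by 0.24 for PKM and 0.09 for PGK1. GAPDH differed by -0.10 (SE 0.141), PGAM1 by -0.23 (SE 0.166), ENO1 by -0.165 (SE 0.14) and the neuron-type enolase ENO2 by -0.03 (SE 0.157). LDHA, the subunit that favours lactate formation, had values of 11.31 and 11.53 with the inhibitor and 11.62 and 11.65 in the controls, a difference of -0.215 (SE 0.151). LDHB, the subunit that favours lactate use, had values of 10.71 and 10.85 with the inhibitor and 11.06 and 11.12 in the controls, a difference of -0.31 (SE 0.145, adjusted p = 0.32 in limma). Many of these genes have processed pseudogenes, and probe specificity was not checked.

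Counts over the groups were read against all features. Both inhibitor arrays lay below both controls for 12 of the 17 enzymes and above for 0, against 33.8% of all features below and 16.5% above. That share of enzymes below was 70.6%, and 71.1% of features with a level of 10 or more lay below. Only 9 of the 17 enzymes have such a level, and all of these but TPI1 lay below. After quantile normalization 6 enzymes lay below and 2 above, against 5134 of the 21448 features below and 4876 above. Of the 605 features with a level of 10 or more, 224 then lay below and 152 above. Among the 17 regulators, 7 lay above and 5 below with the deposited values, and 9 above and 3 below after quantile normalization. The median log2 difference was -0.195 for the enzymes, -0.035 for the regulators and -0.07 over all features, of which 40.2% had a higher mean with the inhibitor. The regulators ranged more widely, with quartiles of -0.345 and 0.40 against -0.27 and -0.125 for the enzymes. Quartiles were -0.255 and 0.125 over all features, and -0.29 and -0.09 for those with a level of 10 or more. The median level was 6.59 for the regulators and 10.02 for the enzymes. Centred on each gene's 4-array mean, the regulator median minus the enzyme median was 0.17 and 0.112 in the inhibitor arrays and -0.047 and -0.07 in the controls. The gap between the group medians was 0.16, and became 0.315 when SLC2A1, SLC2A3, PFKFB3 and PDK1 were counted with the enzymes.

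The median difference over all features was 0.075 below a mean level of 4, -0.025 from 4 to 6, -0.15 from 6 to 8, -0.215 from 8 to 10 and -0.205 at 10 or above. The 9 enzymes in the brightest range had a median of -0.215. After quantile normalization, which gives every array the same distribution, that range had a median of -0.026, the 17 enzymes a median of -0.071 with 11 lower and 6 higher, and the regulators a median of 0.118. After cyclic loess the enzyme median was -0.006 with 10 lower and 7 higher. The regulators had medians of -0.287 from 4 to 6 (4 genes), 0.12 from 6 to 8 (9 genes) and 0.155 from 8 to 10 (4 genes), below the median of all features in the first range and above it in the others.

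**Figure D3:**
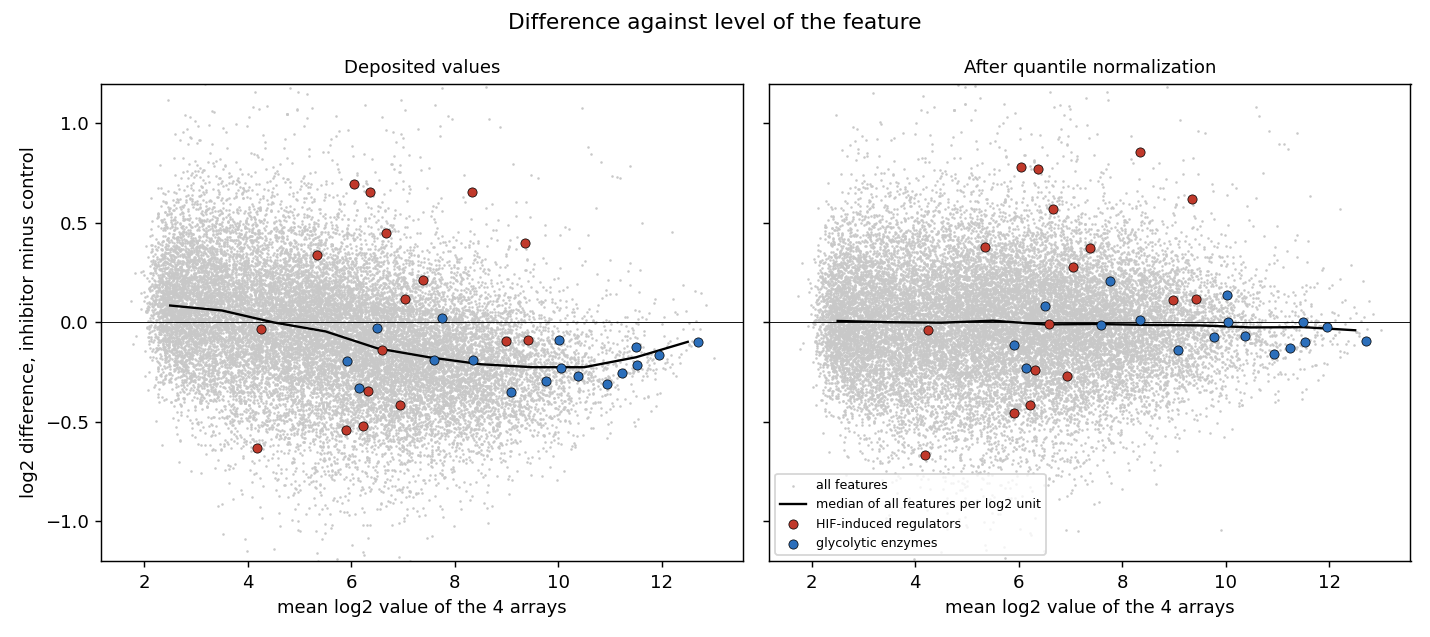
Log2 difference, inhibitor minus control, on the vertical axis against the mean log2 value of the 4 arrays, for the deposited values at left and after quantile normalization at right. Grey points are all features (those beyond the axis range of the plot are not drawn), the black line is their median per log2 unit, with enzymes in blue and regulators in red. In the right panel the enzymes run from -0.23 to 0.208 and the regulators from -0.664 to 0.856, on both sides of a line near 0.

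**Figure D4:**
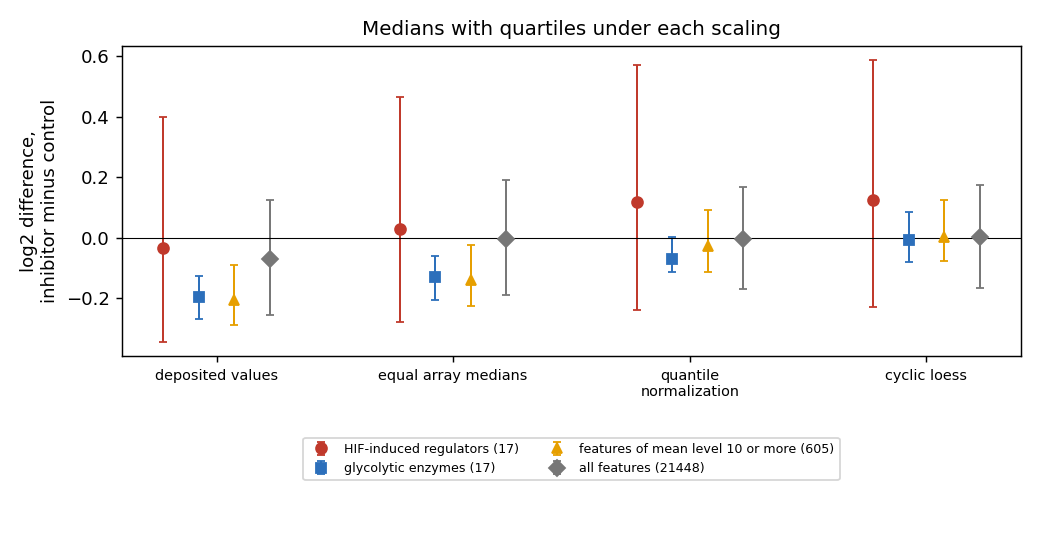
Median log2 difference, inhibitor minus control, on the vertical axis under 4 scalings on the horizontal axis, with bars from the lower to the upper quartile over genes or features. The enzyme median goes with that of the features of mean level 10 or more under each scaling, and the regulator median lies above both.

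The settings of the test mattered for single genes. With an intensity trend in the limma prior, 5 members passed an adjusted p of 0.05: SLC2A3 (limma, adjusted p = 0.010), BNIP3L (0.024), ADM (0.028), DDIT4 (0.039) were higher and LDHB (0.043) lower. In that fit 1.02% of all features passed in the higher direction and 6.09% in the lower. With the trend after quantile normalization the passing members were SLC2A3 (limma, adjusted p = 0.0029), BNIP3L (0.0038), ADM (0.028) and EPAS1 (0.045), all higher, against 1.42% of features, and 0 were lower, against 1.19%. SLC2A3, BNIP3L and ADM passed in both of these fits. Over the settings that kept all 4 arrays, the adjusted p in limma ranged from 0.0029 to 0.41 for SLC2A3, 0.0038 to 0.32 for BNIP3L, 0.028 to 0.35 for ADM and 0.036 to 0.43 for DDIT4. It ranged from 0.043 to 0.76 for LDHB and from 0.045 to 0.58 for EPAS1. No member passed in any of the 4 fits that left out an array, where 0.0% of features passed in either direction.

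Genes of the HIF pathway outside the chosen members were also mixed. Of 30 listed, 27 had a feature, with 11 higher means and 16 lower (59.3%, against 59.2% of all features). At an unadjusted p under 0.05, 5 were higher, against 5.11% of all features, and 4 lower, against 12.8%, with 0 past the adjusted threshold in limma. CITED2, a HIF-induced protein that competes with HIF for its coactivator, had values of 9.86 and 9.82 with the inhibitor and 9.16 and 9.04 in the controls, a difference of 0.74 (SE 0.143, adjusted p = 0.14). CUL2, the scaffold of the VHL ubiquitin ligase, had values of 7.15 and 7.57 with the inhibitor and 8.01 and 8.09 in the controls, a difference of -0.69 (SE 0.181, adjusted p = 0.17). The groups were separate for both genes. ANGPTL4, a secreted inhibitor of lipoprotein lipase, differed by 0.625 (SE 0.169), the transferrin receptor TFRC by -0.625 (SE 0.155) and the mitochondrial adenylate kinase AK4 by -0.47 (SE 0.15). VEGFA, the vascular growth factor induced by HIF, had values of 8.16 and 8.29 with the inhibitor and 7.77 and 7.85 in the controls, a difference of 0.415 (SE 0.145, adjusted p = 0.22).

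Of 51 other genes of glucose metabolism listed, 44 had a feature, with 13 higher means and 31 lower (70.5%, against 59.2% of all features). At an unadjusted p under 0.05, 2 were higher, against 5.11% of all features, and 8 lower, against 12.8%, with 0 past the adjusted threshold in limma. The median difference of -0.087 was near the -0.07 over all features, and after quantile normalization 21 were higher and 23 lower, with a median of -0.01. SLC16A7, a carrier of pyruvate and lactate, had values of 6.57 and 6.39 with the inhibitor and 7.26 and 7.19 in the controls, a difference of -0.745 (SE 0.148, adjusted p = 0.14). GPD2, the mitochondrial glycerol phosphate dehydrogenase, had values of 5.10 and 5.54 with the inhibitor and 5.89 and 6.27 in the controls, a difference of -0.76 (SE 0.21, adjusted p = 0.18). The pyruvate dehydrogenase subunits PDHA1 and DLD differed by -0.57 (SE 0.145) and -0.53 (SE 0.14), and RPIA, an isomerase of the pentose phosphate pathway, by -0.46 (SE 0.139). These 5 were picked by their statistics in the same arrays, so their values after another scaling are no separate support. After quantile normalization they ran from -0.691 for GPD2 to -0.325 for RPIA. GFPT1, next in the list by that statistic, went the other way, with a difference of 0.465, or 0.674 after quantile normalization.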

How the data were processed

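Total RNA of HeyA8-MDR cells had been hybridised to Affymetrix Human Clariom S arrays. The authors deposited log2 values made with RMA, a method of background correction, normalization between arrays and probe summary, and per the submitters' processing notes the tool was Transcriptome Analysis Console 4.0. The settings and the genome build are not given in the sources used here. Detection calls were not analysed here. Symbols came from the platform annotation, and 3739 features had none.

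All 21448 features were fitted in limma 3.58.1 (R 4.3.3, lmFit and eBayes, 2 residual and 4.78 prior degrees of freedom), without a block. The Benjamini-Hochberg adjustment ran over every feature, with a threshold of 0.05. Lists are described by counts and medians only. Members, lists and tests were chosen with earlier results of these data known. Values in every array are given for members with a log2 difference of at least 0.4 in size or an unadjusted p under 0.05, and their paralogs, and for some others chosen after values were seen. Outside the members, VEGFA, the 5 genes of a list with the largest moderated statistics and some others chosen after values were seen are named. Other settings were other scalings, variance priors, filters, a replicate block and leaving out each array.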

Additional observations from a re-analysis of the deposited data

How the results depend on the processing

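Of the 36 measured genes, 20 kept the sign of their difference under all settings tried, including the 9 with an unadjusted p under 0.05. The other 16 changed sign in at least 1, and 10 of these were enzymes. The variance priors, ordinary test, filters and replicate block left each difference unchanged, so no sign could turn there. Leaving out an array could not turn the sign of the 9 either, because their groups did not overlap. For those 9, only the scalings could have changed it. The count of features past an adjusted p of 0.05 was 11 with the deposited values, 0 after quantile normalization, 1525 with the intensity trend, 559 with trend and quantile normalization together, 4 in an ordinary test without moderation, 38 over features above the 25th percentile of level and 1011 over those above the median. Members past that threshold numbered 0, but 5 with the trend, 4 with trend and quantile normalization and 4 above the median level (SLC2A3, ADM and DDIT4 higher, PFKFB3 lower). Of the 10739 features above the median level, 1.34% passed in the higher direction and 8.07% in the lower. The regulator median of -0.035 became 0.118 after quantile normalization with or without the trend, 0.03 with equal array medians, 0.124 after cyclic loess, 0.015 above the median level, 0.042 as a mean, and 0.12 with the glucose regulators moved to the enzymes. The enzyme median of -0.195 became -0.071 after quantile normalization with or without the trend, -0.13 with equal medians and -0.006 after cyclic loess. The gap of 0.16 became 0.21 above the median level, 0.238 between means and 0.315 with the glucose regulators moved. Enzymes lower at an unadjusted p under 0.05 numbered 1, where 12.8% of all features were lower. They numbered 0 after quantile normalization (7.1% of all features lower), with equal medians (9.06%) and after cyclic loess (6.93%). With the trend 7 were lower, as were 17.5% of all features and 54.4% of those at a level of 10 or more. The count was 2 with trend and quantile normalization (8.84%), 2 in the ordinary test (9.53%) and 2 above the median level (27.2%). The ordinary test had 2 regulators higher, against 3.09% of all features, and 1 lower, against 9.53%. With the glucose regulators moved, 1 regulator and 3 enzymes were lower, against 12.8% of all features, and 1 enzyme higher, against 5.11%. The cause of these changes was not tested.

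Leaving out 1 array gave 0 features past the threshold in each case. Without control array 1 or control array 2, 2 regulators were higher and 1 lower at an unadjusted p under 0.05, against 5 and 3 with all arrays. Over all 4 fits, 2 to 5 were higher and 1 to 4 lower, and enzymes lower ranged from 0 without either control to 2 without inhibitor array 1 and 4 without inhibitor array 2. The regulator median ranged from -0.04 to 0.08 (0.045 without inhibitor array 1), the enzyme median from -0.23 to -0.155 and the gap from 0.145 to 0.275. Such fits have 1 residual degree of freedom, and a lone array is assumed to vary like the other group. Same-numbered arrays did not deviate together (correlation 0.00579 across features), so the numbers were not taken as pairs. With the replicate block, 0 features passed, 0 enzymes were lower at an unadjusted p under 0.05, and the regulator counts stayed 5 higher and 3 lower, with 4.36% of all features higher and 10.7% lower.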

Other observations

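The pyruvate dehydrogenase complex, which feeds pyruvate into the citrate cycle and is the target of the PDK kinases, had lower means with the inhibitor in all 5 subunits listed. These subunits were singled out after their values were seen. Their mean levels lie from 6 to 8, where 71.8% of all features had a lower mean. Beside PDHA1 and DLD, PDHX differed by -0.43 (SE 0.153), DLAT by -0.425 (SE 0.193) and PDHB by -0.17 (SE 0.167), and none passed an adjusted p of 0.05 in limma. After quantile normalization PDHX was at -0.246, DLAT at -0.285 and PDHB at 0.011. Of the PDK kinases outside the members, PDK2 differed by -0.11, PDK3 by -0.025 and PDK4 by 0.235. PDP1, listed with these genes, was higher by 0.195, and by 0.407 after quantile normalization. All 6 measured genes of the pentose phosphate pathway had lower means, with a median of -0.23. They lie at levels from 6 to 10, and all-feature medians were -0.15 from 6 to 8 and -0.215 from 8 to 10. In those ranges 71.8% and 82.5% of all features had a lower mean. After quantile normalization 5 of the 6 were lower and the median was -0.057.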
